A study of Mus musculus with 6 samples.

Results

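The mitochondrial respiratory chain was described through 52 nuclear-encoded subunits of complexes I to IV in primary mouse melanocytes, the pigment-producing cells of skin. The members were chosen by gene symbol, by a rule that sets no threshold on measured values, and all 52 were found among the 36528 gene models of the files and entered the test. They comprised 34 subunits of complex I, 4 of complex II, 6 of complex III and 8 of complex IV. Polyadenylated RNA was sequenced in 6 libraries, 3 labelled BAP1 KO (knockout of Bap1) and 3 labelled WT (wild type for Bap1). For neither group do the labels name a Cre driver, allele, clone, age or number of animals. No label says whether the libraries came from separate cultures or animals, and p-values therefore describe the variation among these libraries alone, which can be technical.

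The respiratory chain passes electrons from NADH, at complex I, and from succinate, at complex II, through ubiquinone to complex III. Cytochrome c then carries them to complex IV, which reduces oxygen, and complexes I, III and IV pump protons across the inner mitochondrial membrane. Most subunits are encoded in the nucleus and imported, while a small set, in the membrane cores of complexes I, III and IV, is encoded by mitochondrial DNA. Complex II is wholly nuclear-encoded, and its catalytic subunits also serve the citric acid cycle.

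Bap1, the targeted gene, read 73.6, 77.3 and 72.5 CPM (reads relative to library size, with TMM scaling between libraries) in the BAP1 KO-labelled libraries, against 55.7, 55.6 and 55.8 CPM in the WT libraries. Every BAP1 KO-labelled library was above every WT library, by 0.42 on the log2 scale (SE 0.042, edgeR quasi-likelihood adjusted p = 3.89e-06). Bap1 reads, pooled over all its exons, were thus not lower under the knockout label, and each direction given here rests on the labels alone. Libraries held 33987690 to 43773769 uniquely aligned reads. The first principal component, with 95.9% of the variance, separated the labels. On the second, with 1.3%, WT replicates 2 and 3 lay at opposite ends. Among the WT libraries, replicate 3 gave the highest level for 38 of the 52 members (73.1%), against 40.4% of all genes tested.

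All 8 melanocyte markers (Mitf, Tyr, Tyrp1, Dct, Pmel, Mlana, Sox10 and Kit) were read in every library and were called higher in the BAP1 KO-labelled libraries, where they summed to 61912, 61110 and 61878 CPM, against 6405, 6340 and 6441 CPM in WT libraries. Of 10 keratinocyte markers, 9 were tested and all 9 were called lower, with sums of 304 to 329 CPM in the BAP1 KO-labelled libraries and 6717 to 6775 CPM in WT libraries; Krt1, the untested one, had 0 or 1 read in each BAP1 KO-labelled library. All 9 fibroblast markers were lower, with sums of 51.7 to 57.2 CPM against 1004 to 1031 CPM. The immune list (4 of 6 higher, 2 lower) summed to 228 to 235 CPM in the BAP1 KO-labelled libraries and 52.5 to 59.3 CPM in WT libraries, the Schwann cell list (2 of 4 higher, 1 lower) to 1482 to 1549 CPM and 468 to 531 CPM, and the endothelial list (1 of 2 tested higher, 1 lower) to 11.7 to 12.8 CPM and 9.09 to 9.72 CPM. The part of these marker shifts in the subunit results was not tested. In bulk RNA, fewer cells of a type and less RNA per cell cannot be told apart.

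Across the whole set, 24 subunits were called higher and 12 lower in the BAP1 KO-labelled libraries at an adjusted p under 0.05, and 16 were not called. Over all 17121 genes tested, 81.5% were called, 39.4% higher and 42.1% lower, so the 46.2% of members called higher lay near the background and the 23.1% called lower lay under it. Scaling by library totals in place of TMM gave 20 higher and 16 lower, and a filter of 5 CPM in 3 libraries gave 18 higher and 17 lower of 50 tested. The changes were small: none of the 52 passed 2-fold, against 36.6% of all genes tested, and the median absolute log2 fold change was 0.22, against 0.68 over all genes. Levels of the groups did not overlap for 35 members (67.3%), against 82.7% of all genes tested. The median log2 fold change of the members was 0.13, and that of all genes tested was -0.03.

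**Figure D1:**
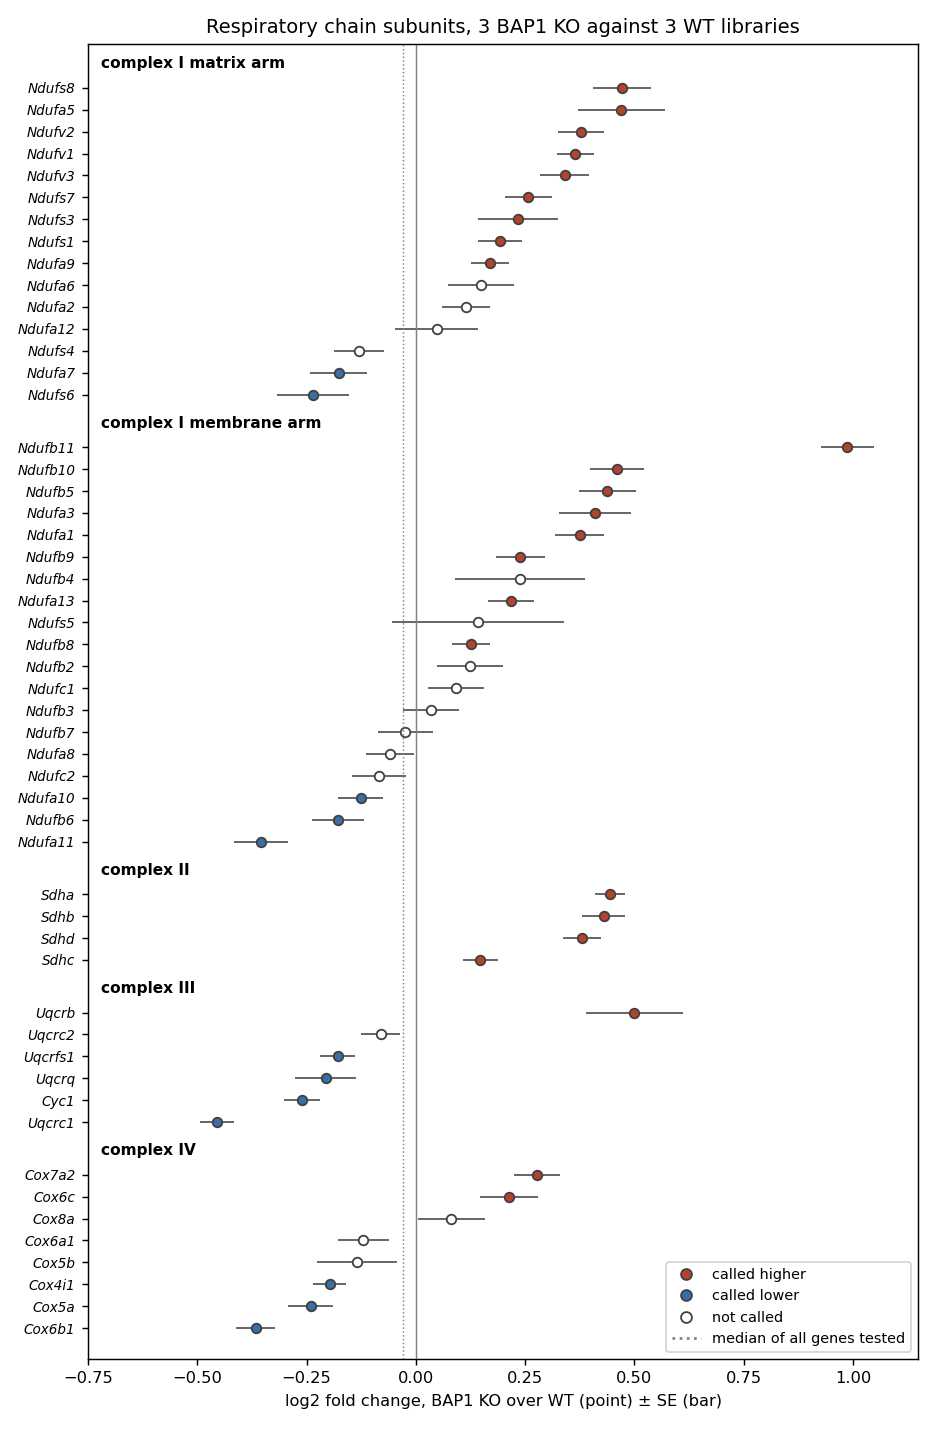
Log2 fold change, BAP1 KO over WT, of the 52 subunits (points) with standard errors (bars), grouped by complex and, for complex I, by arm; red points were called higher, blue points lower and open points were not called, and the dotted line is the median of all genes tested. All complex II points lie right of 0, 5 of 6 complex III points lie left of it, and Ndufb11 lies farthest right, at 0.99.

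The direction differed by complex. Complexes I and II together had 21 of 38 subunits higher and 5 lower, with a median log2 fold change of 0.18. Complexes III and IV had 3 of 14 higher and 7 lower, with a median of -0.16. Their 50% called lower lay near the 42.1% of all genes tested, and their 21.4% called higher lay under the 39.4%. Complexes I and II had 55.3% called higher and 13.2% called lower. In complex IV alone, 37.5% were called lower, also near the background. Summed over complexes I and II, the level was 2023, 2060 and 2071 CPM in the BAP1 KO-labelled libraries, against 1737, 1705 and 1819 CPM in WT libraries. Summed over complexes III and IV, it was 1250, 1272 and 1307 CPM in the BAP1 KO-labelled libraries, against 1398, 1387 and 1485 CPM in WT libraries. Neither pair of sums overlapped, and they ran in opposite directions. The sums cover the listed members only. Of the complex IV subunits outside the list, Ndufa4 was higher by 0.64 and Cox7b had a log2 difference of -0.42, so the direction of complex IV depends on which subunits are listed. The ratio of the first sum to the second, which does not depend on how libraries are scaled, was 1.62, 1.62 and 1.58 in the BAP1 KO-labelled libraries, against 1.24, 1.23 and 1.22 in WT libraries. Abundant subunits weigh most in these sums. With 3 libraries against 3, the smallest exact two-sided permutation p is 0.1, so no p is given for the sums. Under all 17 alternative settings the median of complexes I and II stayed above 0 and that of complexes III and IV below it. The pairing of complexes was not planned, and it joins those whose medians had the same sign (0.16 for I, 0.41 for II, -0.19 for III and -0.13 for IV). Opposite directions thus follow in part from the pairing, and the settings reuse the same 6 libraries.

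**Figure D2:**
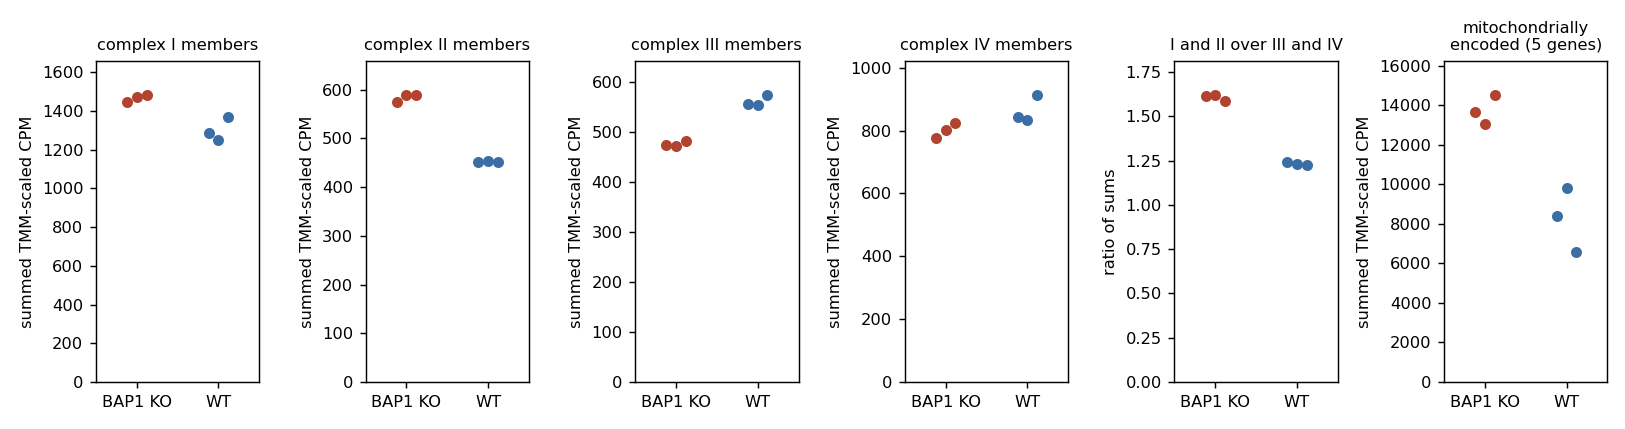
Summed TMM-scaled CPM of the members of each complex in each library (points), the ratio of complexes I and II to complexes III and IV, and the sum of 5 mitochondrially encoded genes; all axes start at 0 and the 3 libraries labelled BAP1 KO are red and the 3 WT libraries blue. Complex II sums lie at 575 to 589 CPM in BAP1 KO and at 451 to 453 CPM in WT, and the ratio at 1.58 to 1.62 and 1.22 to 1.24.

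In the matrix arm of complex I, which takes electrons from NADH and passes them along iron-sulphur clusters, 9 of 15 subunits were higher, 2 lower and 4 not called. All 6 members that belong to the conserved catalytic core (Ndufv1, Ndufv2, Ndufs1, Ndufs3, Ndufs7 and Ndufs8) were higher, with a median log2 fold change of 0.31; among the 28 accessory subunits of complex I, 11 were higher and 5 lower. Ndufv1, which carries the flavin that accepts electrons from NADH, read 107, 110 and 103 CPM in the BAP1 KO-labelled libraries, against 84.0, 80.4 and 83.9 CPM in WT libraries. The groups did not overlap, and the log2 difference was 0.37 (SE 0.043, edgeR adjusted p = 1.37e-05). Ndufs1, the large iron-sulphur subunit, read 114, 113 and 123 CPM in the BAP1 KO-labelled libraries, against 107, 102 and 97.2 CPM in WT libraries. Its difference was smaller, 0.19 (SE 0.050, edgeR adjusted p = 0.00442), and the nearest libraries of the groups were 113 and 107 CPM; it was not called with the 5 CPM filter.

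Ndufs8, a core subunit with iron-sulphur clusters near the ubiquinone site, had the highest log2 fold change of the matrix arm, 0.47 (SE 0.067, edgeR adjusted p = 6.65e-05). It read 44.6, 42.9 and 42.6 CPM in the BAP1 KO-labelled libraries, against 31.2, 28.2 and 34.3 CPM in WT libraries. Ndufa5, an accessory subunit of the matrix arm, read 20.5, 21.3 and 22.7 CPM in the BAP1 KO-labelled libraries, against 15.6, 13.0 and 17.8 CPM in WT libraries. The groups stood apart for both genes, and Ndufa5 differed by 0.47 (SE 0.099, edgeR adjusted p = 0.00118). Ndufv2, the other core subunit that binds a cluster beside Ndufv1, differed by 0.38 and Ndufv3, an accessory subunit at the same tip, by 0.34. Ndufs7, a core subunit next to the ubiquinone site, differed by 0.26 and Ndufa9, an accessory subunit, by 0.17. Ndufs3, a core subunit, was called at 0.23 with overlapping groups, 18.3, 19.8 and 19.4 CPM in the BAP1 KO-labelled libraries and 15.2, 14.7 and 18.9 CPM in WT libraries. It lost the call in 8 of 17 alternative settings, 4 of them the omission of 1 library (BAP1 KO replicate 2 or 3, or WT replicate 1 or 2).

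The matrix arm subunits that ran the other way were accessory ones. Ndufs6, which binds zinc and is needed late in assembly, read 16.3, 17.9 and 18.0 CPM in the BAP1 KO-labelled libraries, against 19.6, 18.7 and 22.9 CPM in WT libraries, a log2 difference of -0.24 (edgeR adjusted p = 0.0213). Ndufa7 read 44.3, 42.0 and 41.8 CPM in the BAP1 KO-labelled libraries, against 46.6, 44.7 and 53.4 CPM in WT libraries, a log2 difference of -0.18 (edgeR adjusted p = 0.0291). In both, WT replicate 3 was the highest library, and without it the differences were -0.11 for Ndufs6 (adjusted p = 0.128) and -0.07 for Ndufa7 (adjusted p = 0.219). Ndufs6 was also not called without BAP1 KO replicate 1, nor Ndufa7 without BAP1 KO replicate 2 or 3 or WT replicate 1. Ndufs4, Ndufa2, Ndufa6 and Ndufa12 were not called, with log2 fold changes of -0.13, 0.12, 0.15 and 0.05; without WT replicate 3, Ndufs4 was called lower, at -0.14, and Ndufa2 and Ndufa6 higher, at 0.20 and 0.27.

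In the membrane arm of complex I, whose mitochondrially encoded subunits pump protons, 8 of 19 nuclear-encoded subunits were higher, 3 lower and 8 not called. Ndufb11, an accessory subunit of the proton-pumping part that is encoded on the X chromosome (gene ID 104130, GRCm38 X, 20615326 to 20617619), read 24.8, 25.8 and 25.8 CPM in the BAP1 KO-labelled libraries, against 12.7, 12.2 and 13.6 CPM in WT libraries. The lowest BAP1 KO-labelled library was far above the highest WT library, and the log2 difference of 0.99 (SE 0.060, edgeR adjusted p = 5.65e-08) was the largest of the 52 members. Of its annotated exon bases, 12.9% overlap Rbm10, an RNA-binding protein gene on the other strand that was higher by 0.49, and the libraries do not mark strand, so reads of the shared stretch cannot be assigned. Ndufb10, an intermembrane-space subunit, read 64.4, 63.3 and 61.1 CPM in the BAP1 KO-labelled libraries, against 45.0, 42.0 and 50.1 CPM in WT libraries, a log2 difference of 0.46 (SE 0.062, edgeR adjusted p = 4.45e-05). The accessory subunits Ndufb5, Ndufa3 and Ndufa1 differed by 0.44, 0.41 and 0.37.

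The other members of the membrane arm that were called higher lay between 0.13 and 0.24. Ndufb9 differed by 0.24, Ndufa13, which is also known as GRIM-19, by 0.22 and Ndufb8 by 0.13; Ndufb8 was not called under library totals, which moved the median of all genes by -0.06, or with the 5 CPM filter. Exons of Ndufa13 overlap those of Tssk6 over 30.0% of their bases, and Tssk6 was higher by 0.83 at 2.23 CPM in the BAP1 KO-labelled libraries and 1.24 CPM in WT libraries. Ndufa11, which faces complex III in the respiratory supercomplex, read 29.7, 33.8 and 30.7 CPM in the BAP1 KO-labelled libraries, against 38.3, 39.8 and 42.5 CPM in WT libraries. The groups did not overlap, and it had the lowest log2 fold change of complex I, -0.35 (SE 0.062, edgeR adjusted p = 0.000327). Its annotated pseudogene Ndufa11b had 262 reads over the 6 libraries, against 8227 for Ndufa11.

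Ndufb6, another membrane-arm accessory subunit, read 26.9, 28.1 and 29.6 CPM in the BAP1 KO-labelled libraries, against 30.1, 33.6 and 31.9 CPM in WT libraries. The groups nearly touched, at 29.6 and 30.1 CPM, and the log2 difference was -0.18 (edgeR adjusted p = 0.0165). Over 39.0% of its exon bases it overlaps Smim27, which was higher by 0.98, the opposite direction; the call was lost without BAP1 KO replicate 1 or 2 or WT replicate 2. Ndufa10, a nucleoside-kinase-like accessory subunit, was called lower at -0.13 (edgeR adjusted p = 0.0425) and lost the call without any 1 of 5 libraries (all but WT replicate 2), with -0.04 without WT replicate 3. Ndufb2, Ndufb3, Ndufb4, Ndufb7, Ndufa8, Ndufc1, Ndufc2 and Ndufs5 were not called, at -0.08 to 0.24. Without WT replicate 3, Ndufb2 and Ndufs5 were called higher, at 0.19 and 0.42, and Ndufb2 also without BAP1 KO replicate 1.

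**Figure D3:**
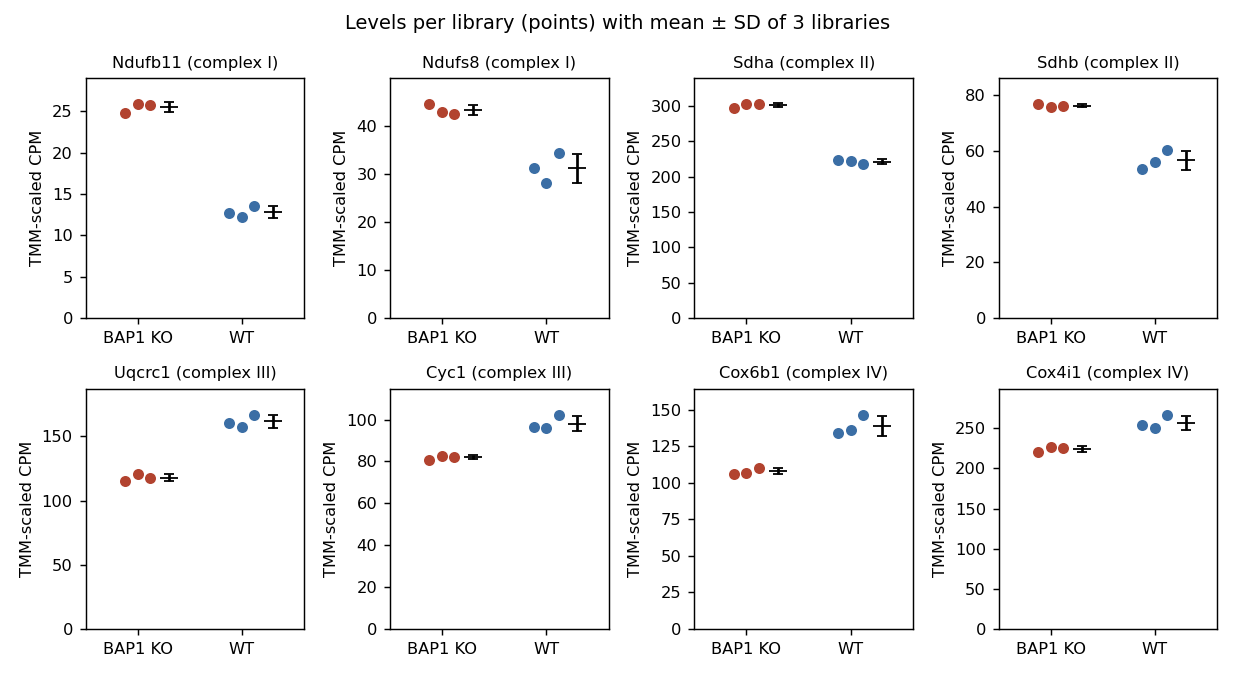
TMM-scaled CPM of 8 subunits in each library (points), with the mean and SD of 3 libraries beside them; each panel has its own axis, starting at 0. In every panel the groups do not overlap: Ndufb11, Ndufs8, Sdha and Sdhb are higher in the BAP1 KO-labelled libraries, and Uqcrc1, Cyc1, Cox6b1 and Cox4i1 are lower.

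Complex II, succinate dehydrogenase, had all 4 subunits called higher, with a median log2 fold change of 0.41. Sdha, the flavoprotein that oxidises succinate (gene ID 66945), read 298, 302 and 303 CPM in the BAP1 KO-labelled libraries, against 224, 223 and 217 CPM in WT libraries, a log2 difference of 0.44 (SE 0.034, edgeR adjusted p = 3.74e-07). Sdhb, the iron-sulphur subunit (gene ID 67680), read 76.8, 75.9 and 76.2 CPM in the BAP1 KO-labelled libraries, against 53.7, 56.0 and 60.2 CPM in WT libraries, a log2 difference of 0.43 (SE 0.049, edgeR adjusted p = 1.05e-05). The libraries of each group lay close together and the groups were far apart for both catalytic subunits. Sdhd, a membrane anchor that shares the ubiquinone site (gene ID 66925), read 89.5, 92.6 and 95.8 CPM in the BAP1 KO-labelled libraries, against 72.3, 72.3 and 68.9 CPM in WT libraries, a log2 difference of 0.38 (SE 0.044, edgeR adjusted p = 1.16e-05). Sdhc, the other membrane anchor (gene ID 66052), read 111, 118 and 114 CPM in the BAP1 KO-labelled libraries, against 102, 102 and 105 CPM in WT libraries. Its difference of 0.15 (SE 0.040, edgeR adjusted p = 0.00577) was the smallest of the complex, and it was not called under library totals or with the 5 CPM filter. The summed level of complex II was 575, 588 and 589 CPM in the BAP1 KO-labelled libraries, against 452, 453 and 451 CPM in WT libraries.

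Promoters are shown for the complex II genes Sdha, Sdhb and Sdhd, as RefSeq gives them on GRCm38.p6. They run from 120 bases before the annotated start to 50 bases past it, 5′ to 3′ on the gene's strand. No promoter was matched for Sdhc, which had the smallest difference of the complex, 0.15. The windows are chr13:74350191-74350360 on the minus strand for Sdha, chr4:140961151-140961320 on the plus strand for Sdhb and chr9:50603800-50603969 on the minus strand for Sdhd. Capitals mark matches, on either strand, to GCGCANGCG, the motif of the respiratory-gene regulator NRF1, or to CCGGAAG, the motif of GABP and other ETS factors.
Sdha: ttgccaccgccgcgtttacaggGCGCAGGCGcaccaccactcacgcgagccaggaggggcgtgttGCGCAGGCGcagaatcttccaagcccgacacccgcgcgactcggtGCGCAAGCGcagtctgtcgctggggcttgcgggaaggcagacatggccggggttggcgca
Sdhb: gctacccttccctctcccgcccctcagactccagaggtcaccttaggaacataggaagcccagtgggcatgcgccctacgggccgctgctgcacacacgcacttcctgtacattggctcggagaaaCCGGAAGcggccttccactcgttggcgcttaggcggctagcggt
Sdhd: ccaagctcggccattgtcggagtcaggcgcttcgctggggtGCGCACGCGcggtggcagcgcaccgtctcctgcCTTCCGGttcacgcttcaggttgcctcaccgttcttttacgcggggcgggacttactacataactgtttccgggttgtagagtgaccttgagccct
The Sdha window held 3 NRF1 motifs, starting 98, 55 and 10 bases before the start. The Sdhb window held 1 ETS motif, 6 bases past the start. The Sdhd window held 1 NRF1 motif 79 bases before the start and 1 ETS motif 46 bases before it. Sdha and Sdhd face another gene across their promoters. Ccdc127 starts 29 bases from Sdha on the other strand and was higher by 0.51, and Timm8b, a chaperone of the mitochondrial intermembrane space, starts 98 bases from Sdhd and was higher by 0.53.

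Complex III, the cytochrome bc1 complex, had 4 of 6 subunits lower, 1 higher and 1 not called, with a median log2 fold change of -0.19. Uqcrc1, a core subunit on the matrix side (gene ID 22273), read 115, 121 and 118 CPM in the BAP1 KO-labelled libraries, against 161, 157 and 167 CPM in WT libraries. The groups were far apart, and the log2 difference of -0.46 (SE 0.040, edgeR adjusted p = 1.29e-06) was the lowest of the 52 members. Cyc1, the cytochrome c1 that hands electrons to cytochrome c (gene ID 66445), read 80.9, 82.6 and 82.3 CPM in the BAP1 KO-labelled libraries, against 96.2, 95.8 and 102 CPM in WT libraries, a log2 difference of -0.26 (SE 0.042, edgeR adjusted p = 0.000163). Uqcrfs1, the Rieske iron-sulphur protein, read 75.1, 71.9 and 75.5 CPM in the BAP1 KO-labelled libraries, against 85.6, 83.7 and 82.6 CPM in WT libraries, a log2 difference of -0.18 (SE 0.041, edgeR adjusted p = 0.00193). All 3 of these subunits kept the groups apart. Tested against a 1.2-fold minimum (glmTreat), Uqcrc1 was the 1 complex III subunit still called lower.

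Uqcrq, a small structural subunit, read 71.3, 72.5 and 75.5 CPM in the BAP1 KO-labelled libraries, against 77.9, 80.0 and 95.1 CPM in WT libraries, a log2 difference of -0.21 (edgeR adjusted p = 0.0190). WT replicate 3 stood above the other WT libraries, and without it the difference was -0.08 (adjusted p = 0.0841); the call was also lost without BAP1 KO replicate 1 or 2. Uqcrc2, the partner of Uqcrc1 in the core, was not called, with 123, 116 and 121 CPM in the BAP1 KO-labelled libraries and 129, 131 and 121 CPM in WT libraries (log2 difference -0.08, edgeR adjusted p = 0.119). Uqcrb, a small subunit near the ubiquinone site, ran the other way, with 7.93, 7.39 and 8.95 CPM in the BAP1 KO-labelled libraries, against 6.50, 5.66 and 5.02 CPM in WT libraries, a log2 difference of 0.50 (SE 0.11, edgeR adjusted p = 0.00166). It was the complex III member with the fewest reads, and 56.6% of its 50-base sequences occur in no other annotated gene.

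Complex IV, cytochrome c oxidase, had 3 of 8 subunits lower, 2 higher and 3 not called, with a median log2 fold change of -0.13. Cox6b1, which links the oxidase monomers on the intermembrane side (gene ID 110323), read 106, 107 and 110 CPM in the BAP1 KO-labelled libraries, against 134, 136 and 147 CPM in WT libraries, a log2 difference of -0.37 (SE 0.045, edgeR adjusted p = 1.99e-05). Cox5a, a matrix-side subunit, read 77.7, 80.1 and 88.5 CPM in the BAP1 KO-labelled libraries, against 96.0, 96.1 and 98.6 CPM in WT libraries, a log2 difference of -0.24 (SE 0.052, edgeR adjusted p = 0.00135). Cox4i1, the subunit at which ATP and ADP regulate the enzyme, read 220, 227 and 225 CPM in the BAP1 KO-labelled libraries, against 254, 250.4 and 267 CPM in WT libraries, a log2 difference of -0.20 (SE 0.038, edgeR adjusted p = 0.000618). The groups did not overlap in any of the 3. Exons of Emc8, on the other strand, cover 9.9% of the exon bases of Cox4i1, and Emc8 was higher by 0.86.

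The higher members of complex IV were small subunits. Cox7a2, the isoform of tissues other than heart and skeletal muscle, read 86.3, 87.4 and 93.4 CPM in the BAP1 KO-labelled libraries, against 69.6, 72.9 and 77.9 CPM in WT libraries, a log2 difference of 0.28 (SE 0.052, edgeR adjusted p = 0.000554). Cox6c read 54.6, 56.2 and 61.4 CPM in the BAP1 KO-labelled libraries, against 54.2, 46.9 and 47.5 CPM in WT libraries, a log2 difference of 0.21 (edgeR adjusted p = 0.0116). The lowest BAP1 KO-labelled library and the highest WT library of Cox6c nearly met, at 54.6 and 54.2 CPM, and the gene was not called under library totals or with the 5 CPM filter. Cox6a1, Cox5b and Cox8a were not called, at -0.12, -0.13 and 0.08; without WT replicate 3 Cox8a was called higher, at 0.22, and without WT replicate 2 Cox6a1 was called lower, at -0.16.

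Windows of the same extent are shown for members at the ends of the range: Ndufb11 (chrX:20617570-20617739, minus strand), the highest, Ndufs8 (chr19:3912725-3912894, minus strand), and Uqcrc1 (chr9:108936528-108936697, plus strand) and Cox6b1 (chr7:30626065-30626234, minus strand), the lowest of complexes III and IV. Capitals mark the same motifs.
Ndufb11: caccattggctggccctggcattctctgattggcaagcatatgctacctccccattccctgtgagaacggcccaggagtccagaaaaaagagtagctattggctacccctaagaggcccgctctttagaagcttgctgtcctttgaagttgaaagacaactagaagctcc
Ndufs8: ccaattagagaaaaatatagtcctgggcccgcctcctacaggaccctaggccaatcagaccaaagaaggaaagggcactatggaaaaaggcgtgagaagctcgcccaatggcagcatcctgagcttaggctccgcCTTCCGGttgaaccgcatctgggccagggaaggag
Uqcrc1: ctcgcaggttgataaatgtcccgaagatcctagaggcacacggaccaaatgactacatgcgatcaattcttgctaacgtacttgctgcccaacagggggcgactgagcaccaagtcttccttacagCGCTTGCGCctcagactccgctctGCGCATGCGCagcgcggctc
Cox6b1: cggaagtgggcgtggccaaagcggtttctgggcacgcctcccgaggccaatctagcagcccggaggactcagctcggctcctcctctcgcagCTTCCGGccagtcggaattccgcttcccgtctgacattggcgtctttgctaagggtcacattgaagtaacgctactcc
The Ndufb11 window held none of them, which says only that these letters are not in it. The Ndufs8 window held 1 ETS motif 15 bases past the start, the Cox6b1 window 1 ETS motif 28 bases before it, and the Uqcrc1 window NRF1 matches at 6, 30 and 31 bases past it, the last pair being 1 stretch read on both strands. The motifs thus stood in windows of genes that were higher and of genes that were lower.

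Promoters of 300 bases were matched for 42 of the 52 members. GCGCANGCG was in 12 (28.6%), against 12.4% of the promoters of 12365 genes tested and 6.47% of all 27025 promoters of the table. CCGGAAG was in 9 (21.4%), against 16.3% and 9.12%. AAGATGGCG, the motif of the factor YY1, was in 5 (11.9%), against 2.78% and 1.5%, and 4 of the 5 were genes of the complex I matrix arm (Ndufs4, Ndufs6, Ndufs7 and Ndufa9). At least 1 of the 3 motifs stood in 23 members (54.8%), against 28% of the promoters of genes tested. Of those 4 genes, Ndufs7 and Ndufa9 were called higher, Ndufs6 was called lower and Ndufs4 was not called. A match is a description of letters and was not measured as binding.

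Levels between subunits can be compared only per length, for which the deposited RPKM (reads relative to gene length and library size, with the authors' size factor) was used. The median RPKM of complex I was 38.1 in the BAP1 KO-labelled libraries and 32.2 in WT libraries, that of complex II 77.0 and 61.2, that of complex III 62.4 and 69.0, and that of complex IV 148 and 150.2. Cox4i1 had the highest RPKM of all members, 278 ± 3.36 in the BAP1 KO-labelled libraries and 313 ± 14.8 in WT libraries (SD, n = 3 each). Cox6a1, with 221 ± 5.56 and 236 ± 22.9 RPKM, and Cox6b1, with 201 ± 3.47 and 254 ± 15.05 RPKM in BAP1 KO and WT, followed. The 3 stood apart by more than their SDs in the BAP1 KO-labelled libraries, whereas Cox6a1 and Cox6b1 did not in WT libraries. Within complex II the 4 subunits lay within a narrow range, 57.6 to 85.3 RPKM as means of 6 libraries. Complex I spanned 3.61 to 112 RPKM, and complex IV 14.8 to 296 RPKM.

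Several members with a low RPKM share sequence with other genes. Reads of 50 bases that align to more than 1 place are lost to unique alignment, so each member's annotated 50-base sequences were looked up in the transcripts of all other GENCODE M21 genes. For 25 members none was found elsewhere, for 38 at least 90% were found in no other gene, and 16 shared some with an annotated pseudogene. Of the 14 members under 90%, 6 shared at least 10% with pseudogenes: Uqcrb (43.2%), Ndufb4 (37.0%), Ndufs3 (35.8%), Ndufa12 (26.2%), Ndufs5 (21.7%) and Cox6a1 (12.3%). In 6 others (Cox5a, Ndufb6, Ndufa13, Uqcrc2, Ndufb9 and Cox4i1) the gene that shares most overlaps the member at the same place, where a read still aligns once but can belong to either gene. The rest were Cox5b, with 21.8% shared with Gm11273, and Ndufb11, with 9.5% shared with the pseudogene Gm6444. Neither of these sharing genes overlaps the member. Ndufb4 also had the lowest RPKM, 3.94 in the BAP1 KO-labelled libraries and 3.28 in WT libraries, with 1.97, 1.95 and 1.78 CPM in the BAP1 KO-labelled libraries and 1.55, 1.89 and 1.41 CPM in WT libraries. Ndufs5, of which 21.7% of sequences stand in the pseudogene BC002163, had 4.56 and 4.04 RPKM in BAP1 KO and WT. Stretches of the coding sequence that the members share, base for base, with pseudogenes are shown because reads from them cannot be counted for the member.
Uqcrb: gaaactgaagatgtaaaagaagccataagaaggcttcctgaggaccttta
Ndufs3: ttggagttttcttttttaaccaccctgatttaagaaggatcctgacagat
Ndufb4: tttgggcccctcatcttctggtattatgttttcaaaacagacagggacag
Cox5a: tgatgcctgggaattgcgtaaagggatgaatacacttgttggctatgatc
The Uqcrb stretch (chromosome 13, coding bases 118 to 167) stands also in Gm16089, Gm19326 and Gm2962, the Ndufs3 stretch (chromosome 2, coding bases 518 to 567) in Gm11927 and Gm12251, the Ndufb4 stretch (chromosome 16, coding bases 283 to 332) in Gm16056, Gm20519 and Ndufb4c, and the Cox5a stretch (chromosome 9, coding bases 183 to 232) in Gm11633. The 38 members with at least 90% unique sequence had 19 higher and 9 lower calls and a median log2 fold change of 0.14, beside 0.13 for all 52. Reads from stretches shared with a copy elsewhere are not counted. The level of such a member can thus be understated, and its fold change rests on the rest of the transcript. These shares count exact matches only. Pseudogenes of at least 90% identity over at least 150 bases were also found for some members over 90% unique. Among them were Ndufc1 (4 pseudogenes), Cox6c (2), Ndufa7 (2), Ndufb3 (2) and Sdhc (1). The reads lost to such near copies were not measured. In 14 members at least 5% of the exon bases also overlap another annotated gene, among them Ndufb5 (12.3%, Mrpl47, which differed by 0.29) and Cox6c (7.0%, Vps13b, which differed by 0.73). All 4 complex II members were at least 99.9% unique by exact matches, and of these only Sdhc had a near copy.

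**Figure D4:**
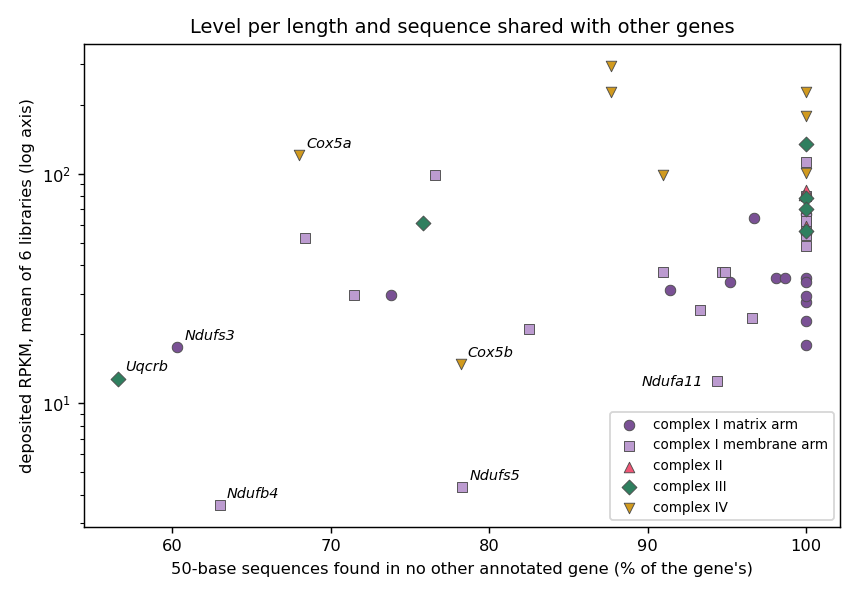
Deposited RPKM of each subunit, as the mean of 6 libraries on a log axis, against the share of its 50-base sequences found in no other annotated gene; symbols mark the complex and, for complex I, the arm. Ndufb4, Uqcrb and Ndufs3 lie at the lower left (63.0%, 56.6% and 60.3% unique), while Ndufa11 has a low level at 94.4% unique.

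Subunits of the same complexes outside the member list gave 3 higher and 2 lower of 10 tested, with a median log2 fold change of -0.01. For this list and those that follow, the shares over all genes tested were 39.4% higher and 42.1% lower. Ndufa4, a subunit now placed in complex IV, read 134, 137 and 141 CPM in the BAP1 KO-labelled libraries, against 85.4, 89.4 and 89.3 CPM in WT libraries, a log2 difference of 0.64 (SE 0.041, edgeR adjusted p = 9.36e-08). Cox7b, another complex IV subunit, read 27.96, 28.9 and 31.2 CPM in the BAP1 KO-labelled libraries, against 39.6, 37.3 and 41.0 CPM in WT libraries, a log2 difference of -0.42 (edgeR adjusted p = 5.16e-05). Complex IV thus held subunits that stood apart in either direction. Of the tissue isoforms of complex IV and related subunits, 4 of 9 passed the count filter and 3 of those were higher. Cox7a1, the muscle and brown fat isoform, read 3.56, 3.87 and 3.85 CPM in the BAP1 KO-labelled libraries, against 1.18, 1.33 and 1.46 CPM in WT libraries (log2 difference 1.5, edgeR adjusted p = 7.27e-07), and the testis isoform Cox6b2 differed by 0.22.

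The mitochondrially encoded subunits gave 6 of 8 tested higher and the other 2 not called, with a median log2 fold change of 0.81. Only ND1, ND2, ND5, ND6 and CYTB were both tested and found at least 90% outside other genes, and their sum was 13671, 13067 and 14504 CPM in the BAP1 KO-labelled libraries, against 8374, 9824 and 6590 CPM in WT libraries. The groups did not overlap, and WT replicate 3, which gave the highest WT level for most nuclear members, was the lowest of the 6 libraries here. The ratio of this sum to the sum of the 52 members was 4.18, 3.92 and 4.29 in the BAP1 KO-labelled libraries, against 2.67, 3.18 and 1.99 in WT libraries. ND6, a complex I subunit read from the other strand of mitochondrial DNA, read 1087, 992 and 1119 CPM in the BAP1 KO-labelled libraries, against 343, 441 and 251 CPM in WT libraries, a log2 difference of 1.63 (SE 0.16, edgeR adjusted p = 2.76e-06). Since strand is not marked, its reads cannot be told from those of transcripts of the opposite strand. CYTB, the cytochrome b of complex III, read 5946, 5713 and 6545 CPM in the BAP1 KO-labelled libraries, against 3957, 4242 and 3200 CPM in WT libraries, a log2 difference of 0.68 (edgeR adjusted p = 3.65e-05). CYTB was thus higher, while 4 of 6 nuclear members of complex III were lower. ND3, ND4L, COX2, COX3 and ATP6 share at least 98% of their 50-base sequences with annotated pseudogenes, and of these only COX2 passed the filter, at 1.11 CPM in the BAP1 KO-labelled libraries and 0.93 CPM in WT libraries.

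ATP synthase, which uses the proton gradient, had 5 of 18 subunits higher and 4 lower, with a median of -0.04. Atp5c1, the rotating gamma subunit, was higher by 0.43 and Atp5g1, 1 of several genes for the membrane ring, lower by 1.04 on the log2 scale at 0.70 CPM in the BAP1 KO-labelled libraries and 1.45 CPM in WT libraries. Atp5b, the catalytic and most abundant subunit, read 996, 984 and 980 CPM in the BAP1 KO-labelled libraries and 999, 981 and 1026 CPM in WT libraries, and was not called. Of 15 complex I assembly factors, 9 were called higher and 4 lower (median log2 fold change 0.46). Ndufaf3 was higher by 0.76, Nubpl, which helps insert iron-sulphur clusters, had a log2 difference of -0.76, and Acad9, the factor with the most reads per library, was not called. Among complex II assembly factors 2 of 4 were lower and the other 2 were not called, whereas every subunit of that complex was higher. Sdhaf3 read 1.73, 1.62 and 1.76 CPM in the BAP1 KO-labelled libraries, against 2.99, 3.298 and 2.77 CPM in WT libraries (log2 difference -0.83, edgeR adjusted p = 9.36e-05), and Sdhaf2 was not called.

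Complex III assembly factors were 4 of 6 higher and 2 lower, where most subunits were lower. Ttc19 had a log2 difference of 0.49, Uqcc2 of 0.30 and Lyrm7, which matures the Rieske protein, of -0.58. Complex IV assembly factors were 11 of 21 higher and 3 lower, with a median of 0.23. Cox20, a chaperone of COX2, differed by 0.75 and Cox18 by -0.48, and Coa5, the factor with the most reads per library, was not called. Genes of ubiquinone synthesis and electron carriers were 3 of 12 higher and 4 lower. Coq8a, a kinase-like protein of ubiquinone synthesis, read 24.6, 24.5 and 24.8 CPM in the BAP1 KO-labelled libraries, against 7.88, 7.98 and 6.96 CPM in WT libraries, a log2 difference of 1.70 (edgeR adjusted p = 1.46e-09). Pdss2, which makes the side chain of ubiquinone, differed by -0.93 and Coq9 by 0.32.

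The citric acid cycle, which includes the reaction of complex II, had 4 of 13 genes higher and 5 lower. Ogdh, of the oxoglutarate dehydrogenase complex, read 557, 569 and 534 CPM in the BAP1 KO-labelled libraries, against 283, 282 and 299 CPM in WT libraries, a log2 difference of 0.94 (edgeR adjusted p = 2.37e-09). Mdh2, the mitochondrial malate dehydrogenase, read 218, 219 and 207 CPM in the BAP1 KO-labelled libraries, against 336, 331 and 342 CPM in WT libraries, a log2 difference of -0.65 (edgeR adjusted p = 3.3e-08). The 2 enzymes thus lay on either side of the complex II genes, whose range was 0.15 to 0.44. Genes that copy and express mitochondrial DNA were 4 of 11 higher and 3 lower. The polymerase Polg differed by 0.69 and the helicase Twnk by -0.60.

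All 9 nuclear regulators of respiratory genes were called, 4 higher and 5 lower, where 81.5% of all genes tested were called. The coactivators of the PGC-1 family ran in opposite directions. Ppargc1b read 14.7, 14.8 and 14.4 CPM in the BAP1 KO-labelled libraries, against 2.67, 2.53 and 2.67 CPM in WT libraries, a log2 difference of 2.48 (SE 0.076, edgeR adjusted p = 1.78e-10). Ppargc1a read 10.6, 10.6 and 10.3 CPM in the BAP1 KO-labelled libraries, against 29.9, 29.4 and 28.3 CPM in WT libraries, a log2 difference of -1.47 (SE 0.055, edgeR adjusted p = 9.77e-10). Both differences were several times larger than the median absolute change of the subunits. Of the factors whose motifs were searched, Nrf1 was higher by 0.31, Gabpa, Gabpb1 and Gabpb2 of the GABP complex differed by 0.50, -1.02 and 0.91, and Yy1 by -0.15.

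**Figure D5:**
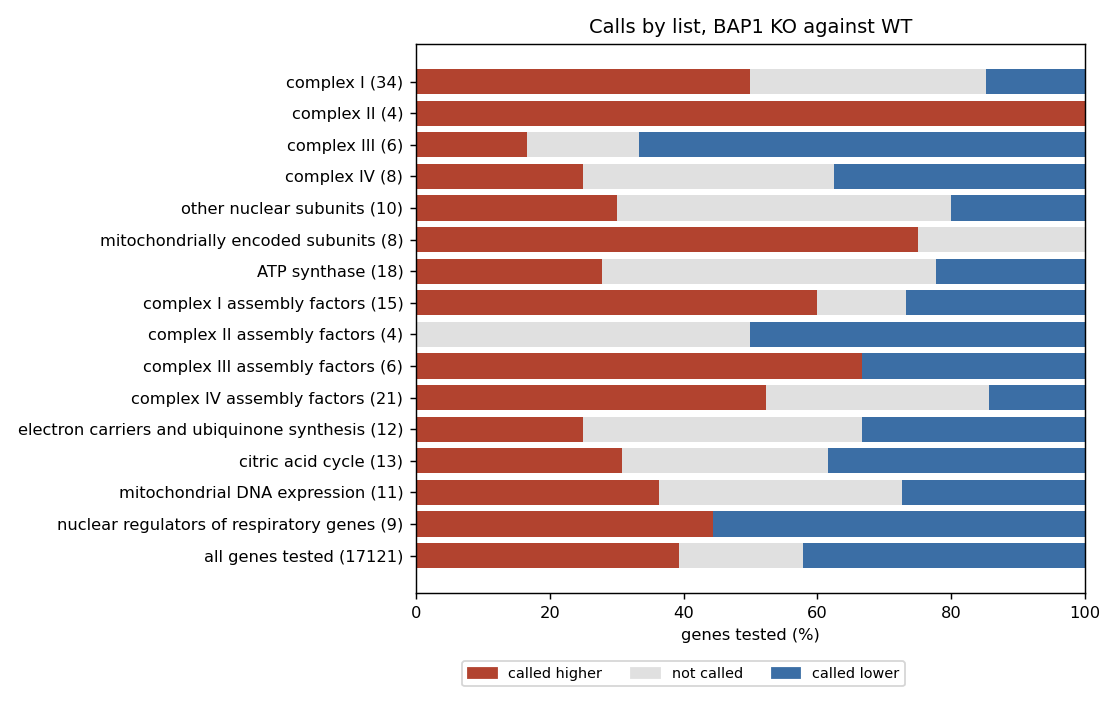
Share of the genes tested that were called higher (red, left), not called (grey) or called lower (blue, right) in the BAP1 KO-labelled libraries, for each complex, for related mitochondrial lists and for all genes tested, with the number tested in brackets. Complex II is the 1 list wholly called higher, and complex III has the largest share called lower among the 4 complexes, 4 of 6.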

How the data were processed

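Per the labels' protocols, DNase-treated total RNA went through a TruSeq v2 preparation for polyadenylated RNA, which does not mark strand, and 50-base single-end reads were made. GSNAP and the build GRCm38 were used, per the submitters' processing notes; versions, counting tool and gene annotation: not given in the sources used here. The deposited files hold, per the file headers, for each gene model the count of uniquely aligned reads and an RPKM adjusted by a size factor, both made by the authors. Of 36528 gene IDs, 31049 (85.0%) were named by the RefSeq table of build GRCm38.p6 and 78 by GENCODE M21 alone, leaving 5401 unnamed (1.05% of the reads). The members and all gene lists were chosen with earlier results of these data known.

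Counts were tested over all genes with edgeR 4.0.16 in R 4.3.3 (filterByExpr, minimum count 10 and total 15; TMM factors 0.9745 to 1.031; glmQLFit and glmQLFTest, no covariate) and adjusted by Benjamini-Hochberg over 17121 genes, with a threshold of 0.05. The SE was taken as the size of the log2 fold change divided by the root of its F statistic. Replicates were numbered in submission order; within groups the counts of each pair of libraries differed beyond sampling noise (chi-square over its degrees of freedom, 2.01 to 17.4). Every member may be named. Values per library are given for the 2 highest and the 2 lowest members by log2 fold change in each complex or arm. They are also given for Ndufv1, Ndufs1, Sdha, Sdhb, Cyc1, Uqcrfs1 and Cox4i1. From other lists come the called genes with the highest and the lowest log2 fold change and the gene with the highest mean CPM. A few others were singled out after their values were seen. These are Ndufs3, Ndufb4, Uqcrq, the NRF1, GABP and YY1 genes, COX2 and genes that overlap or neighbour a member. Alternatives were other scalings, filters and thresholds, DESeq2 1.42.0, limma-voom 3.58.1, glmTreat, and leaving out each library; the authors' factors and edgeR's robust option were added after the data were seen. The fit was checked on simulated data. The 50-base sequences were compared with GENCODE M21 transcripts in place of the genome, which was not used here, so unannotated copies are not counted. Promoters are those of the first start listed per gene. Tables and plots were made with Python 3.11.15. A result that the naming rule would give among the other lists is not reported here.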

Additional observations from a re-analysis of the deposited data

How the results depend on the processing

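No paired analysis was possible because the labels give no replicate numbers and the numbers used here follow submission order. Of the 36 called members, 17 kept their call in all 17 alternative settings, 19 lost it in at least 1 and 0 changed sign; 10 members without a call gained one in at least 1. The number of genes called over all genes and the members called higher in complexes II and III stayed within 1.5 times, and Bap1 stayed on the same side. Members called lower in complex III were 4, and 1 under glmTreat. Members called lower were 7 at an adjusted p under 0.01. Under glmTreat against 1.2-fold, 14 members were higher and 3 lower, with 5 higher in the matrix arm, 5 in the membrane arm and 0 in complex IV. Members called higher in complex IV were 1 under library totals, with the 5 CPM filter and at an adjusted p under 0.01. The median of the members was 0.047 with the 5 CPM filter. Leaving out 1 library gave 23 to 29 members higher, 8 to 12 lower, a median of 0.10 to 0.19, 8 to 11 higher in the matrix arm, 8 to 10 in the membrane arm, 4 in complex II, 1 in complex III, 2 to 3 in complex IV, 13585 to 14377 genes called in all and 0.40 to 0.45 for Bap1. Without WT replicate 3 the members were 29 higher and 9 lower. The Atp5b log2 fold change, not called at -0.02, turned to 0.0136 with no count filter, to 0.0067 with the authors' factors and to 0.0257 without WT replicate 3, with -0.0293 as the lowest value without 1 library. Keeping all genes with a read, which adds low genes, moved the median of all genes tested by -0.15 on the log2 scale. The median of the members went from 0.13 to 0.17 there. Other scalings moved the median of all genes by at most 0.06. The 5 CPM filter moved it by 0.007, while the median of the members fell from 0.13 to 0.047. Causes were not tested. With 3 libraries a group, no library was tested as an outlier within its group. Copies elsewhere limit the 6 members that share at least 10% of their sequence with pseudogenes. They also limit Cox5b (21.8% shared with Gm11273) and, to a lesser extent, members with smaller shares such as Ndufb11 (9.5%). Pseudogenes of at least 90% identity over at least 150 bases can limit further members, such as Ndufc1 (4 pseudogenes), Ndufa7 (2) and Ndufb3 (2). Their effect was not measured.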
